A study of Mus musculus with 8 samples.

Results

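RNA bound in an RNF17 immunoprecipitate (IP) was compared with the RNA of the same kind of testis, and the IP to testis ratio of heterozygous mice was set against that of homozygous mice. All 8 of the 8 RNA libraries entered: 2 of heterozygous testis, 2 of homozygous testis, 2 of heterozygous IP and 2 of homozygous IP. Every library came from adult C57BL/6 mice aged 6 weeks, and the genotypes are given as heterozygous RNF17 and homozygous RNF17. The testis libraries had no antibody step, and both IP groups used the antibody RNF17 1774. The libraries were joined by entry name, and the interaction is log2(IP / testis) in heterozygotes minus log2(IP / testis) in homozygotes. A positive value means a higher IP to testis ratio in heterozygotes, and it equals the genotype difference in the IP minus the genotype difference in the testis.

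The labels do not describe the allele, do not say whether homozygotes still make some RNF17 protein, and include neither a wild-type animal nor an IP with an unrelated antibody. They also do not state whether both libraries of each group stem from different animals, so the p-values rest on library spread alone, and that spread could be technical. These are bulk samples, in which fewer cells of a type and less RNA per cell cannot be told apart.

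RNF17 is a germ cell protein with repeated Tudor domains, a fold that binds methylated arginines, as found on PIWI proteins. PIWI proteins carry piRNAs, small RNAs cut from long single-stranded precursor transcripts, many of which are made in pachytene spermatocytes. piRNAs guide the cleavage or silencing of matching RNA, transposon transcripts among them, and RNF17 is known to hold back the mutual, ping-pong cycle of cutting between PIWI proteins.

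Each library held 5661754 to 50575649 reads assigned to genes. Of 19276 gene-table entries, 14180 passed the filter on low counts. Log2 CPM (library-scaled read counts, edgeR's CPM after TMM) of the 2 libraries of a group correlated across these genes, which are not independent, at r = 0.979 for heterozygous IP, 0.961 for homozygous IP, 0.927 for homozygous testis and 0.877 for heterozygous testis. The testis libraries therefore stood further apart than the IP libraries. Testis libraries 1 held 19.29 (heterozygous) and 18.77 (homozygous) unique transposon reads per 100 gene reads, and testis libraries 2 held 6.303 and 8.005.

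Rnf17 mRNA followed the labels in both fractions. It stood at 507.1 and 551.4 CPM in the testis and 1262.5 and 1188.6 in the IP of heterozygotes, and at 50.3 and 97.7 in the testis and 213.6 and 392.7 in the IP of homozygotes. Every homozygous library was below every heterozygous library, and within each genotype both IP libraries were above both testis libraries. The IP to testis ratio itself ran from 2.16 to 2.49 in heterozygotes and from 2.19 to 7.81 in homozygotes, so the genotypes overlapped. The interaction was -0.82 on the log2 scale (SE 0.62; adjusted p = 0.725, edgeR's quasi-likelihood test with Benjamini-Hochberg adjustment). Rnf17 mRNA was thus recovered above its testis level with the antibody in homozygotes too.

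Across all 14180 genes, edgeR's quasi-likelihood test called 0 genes higher (0.0%) and 0 lower (0.0%) at an adjusted p under 0.05, with 0.214 as the smallest value. At an unadjusted p under 0.05 the same test marked 511 genes as higher (3.6%) and 862 as lower (6.08%). DESeq2, a count model run as an alternative, called 30 genes higher (0.501%) and 213 lower (3.55%) of the 5992 to which it gave an adjusted p. All 4 heterozygous ratios that the libraries can form lay above all 4 homozygous ratios for 1789 genes (12.6%), and below them for 1825 (12.9%). These percentages are the background against which the counts of each gene group are read. No single gene passed the edgeR test, so each gene named here is given by its values, and a DESeq2 call is named as such.

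Of the genes that DESeq2 called higher, most were piRNA precursors. The gene table holds 100 entries named as piRNA precursors in sense orientation, and all 100 passed the filter on low counts. Of these, 83 lay above 0 and 17 below, with a median interaction of 1.16, beside 0.02 over all genes. Their median log2(IP / testis) was 0.84 in heterozygotes and -0.38 in homozygotes, so they were more abundant in the IP than in the testis in heterozygotes and less abundant in homozygotes. An unadjusted edgeR p under 0.05 was reached by 42 of them in the higher and 5 in the lower direction, and 56 had heterozygous ratios wholly above the homozygous ones against 4 wholly below. DESeq2 called 23 higher and 1 lower of the 93 with an adjusted p. These are 23 of its 30 higher calls. Other genes, many with few reads, had fitted values above that of every sense precursor, and neither edgeR nor DESeq2 called any of them.

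**Figure D1:**
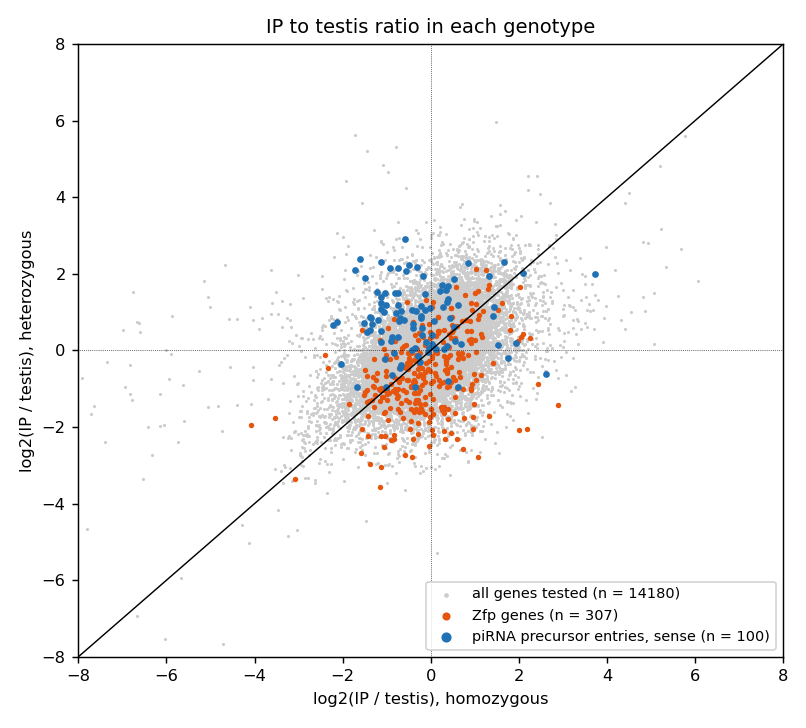
Each point is a gene, with log2(IP / testis) in homozygotes on the horizontal axis and in heterozygotes on the vertical axis; points above the diagonal have a positive interaction. The 100 piRNA precursor entries lie mostly above the diagonal (83 of 100) and the 307 Zfp genes mostly below it (201 of 307); 5 genes fall outside the plotted range.

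Precursor 10-qB5.1-221.1, named like most of them after a chromosome band, stood at 81.5 and 78.7 CPM in the testis and 588.3 and 623.1 in the IP of heterozygotes, and at 45.3 and 47.4 in the testis and 31.0 and 30.7 in the IP of homozygotes. Both heterozygous IP libraries were far above all others and both homozygous IP libraries were the lowest. Its interaction was 3.51 (SE 0.44; edgeR's quasi-likelihood test, adjusted p = 0.214; DESeq2, adjusted p = 3.69e-08).

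Precursor 11-qE1-9443.1 had 295.5 and 243.6 CPM in the testis and 1361.7 and 1285.6 in the IP of heterozygotes, and 314.6 and 358.5 in the testis and 130.2 and 175.7 in the IP of homozygotes. Its testis levels were close in the genotypes, and the IP levels were high in heterozygotes and lowest in homozygotes. The interaction was 3.43 (SE 0.49; DESeq2, adjusted p = 5.55e-07).

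Precursor 17-qE1.1-7037.1 had the highest interaction of all sense entries, 4.01 (SE 0.64; DESeq2, adjusted p = 4.27e-06). Its levels were 170.3 and 121.0 CPM in the testis and 755.8 and 774.4 in the IP of heterozygotes, and 186.6 and 376.3 in the testis and 71.0 and 113.1 in the IP of homozygotes. The IP difference between the genotypes exceeded the testis difference, which ran the other way. Precursors 10-qC1-1527.1, 18-qE1-1295.1 and 10-qB4-6488.1 followed the same order of groups, with interactions of 3.83, 3.38 and 3.07. None of these 6 had overlapping ratios.

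The 2 precursors with the most reads showed smaller values. Precursor 6-qF3-8009.1 had 753.1 and 1250.9 CPM in the testis and 1331.7 and 1323.8 in the IP of heterozygotes, and 593.0 and 1449.3 in the testis and 746.8 and 1032.9 in the IP of homozygotes. Its testis libraries spanned the range of both IP groups, and the interaction was 0.60 (SE 0.70), with overlapping ratios. Precursor 9-qC-31469.1 had an interaction of 2.04 (SE 0.65; DESeq2, adjusted p = 0.0759), from 1167.6 and 1450.8 CPM in heterozygous IP against 391.1 and 579.4 in homozygous IP. Its heterozygous and homozygous ratios did not overlap, although its heterozygous testis libraries differed, at 1081.4 and 536.0 CPM. The likewise abundant pairs of entries from 17-qA3.3 and from 7-qD2, chosen here after their values were seen, had interactions of 2.18 and 2.31, and of 2.86 and 2.21. A further sense entry of 17-qA3.3 had 0.06 (SE 0.55) and overlapping ratios.

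The 22 sense precursors that are named after a band and that DESeq2 called higher came from 12 chromosomes, with 5 from chromosome 10, 3 each from chromosomes 7 and 17, 2 each from chromosomes 5 and 6, and 1 from each of the others. These counts were not set against the number of entries on each chromosome, so no concentration can be read from them. Of the 100 sense entries, 93 are named after a band, with a median interaction of 1.23, and 7 after a gene, with a median of 0.44. Of those 7, pi-Cdc42ep3.1 (chosen after its values were seen) had the highest value, 2.53 (SE 0.65; DESeq2, adjusted p = 0.0155), with 173.3 and 153.2 CPM in heterozygous IP against 52.4 and 38.0 in homozygous IP. The difference between entries named in these ways was not tested.

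Some precursors went the other way. Precursor 14-qA3-284.1, the 1 sense entry that DESeq2 called lower (chosen after its values were seen, as are the others in this paragraph), stood at 519.6 and 370.1 CPM in the testis and 321.6 and 447.0 in the IP of heterozygotes, and 332.1 and 309.3 in the testis and 856.4 and 1295.7 in the IP of homozygotes. The homozygous IP libraries were the highest of the 8, and the interaction was -1.96 (SE 0.55; DESeq2, adjusted p = 0.0389). Precursor 14-qA3-2286.1, of the same band, was more abundant in the IP than in the testis in both genotypes, with 274.1 and 447.2 CPM in heterozygous IP against 1183.2 and 1903.5 in homozygous IP. Its interaction was -1.72 (SE 0.61; DESeq2, adjusted p = 0.126), and that of 14-qA3-3095.1 was -0.31 (SE 0.60). The band was not uniform, as a further sense entry of 14-qA3 lay above 0, at 1.13 (SE 0.59). Its heterozygous ratios were wholly above the homozygous ones, but DESeq2 did not call it (adjusted p = 0.438). The lowest sense value, -3.24 (SE 1.37) at 17-qC-935.1, rested on heterozygous testis libraries of 31.5 and 329.4 CPM; its ratios overlapped, and it was -0.71 without heterozygous testis library 2.

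Summed over the 100 sense entries, precursor reads numbered 21.6 and 14.2 per 1000 gene reads in heterozygous testis and 28.6 and 35.6 in homozygous testis. On this scale the order reversed in the IP, with 42.1 and 44.7 in heterozygotes and 18.5 and 21.2 in homozygotes. The IP to testis ratio of the sum was 1.95 to 3.14 in heterozygotes and 0.518 to 0.740 in homozygotes, with no overlap, and the ratio of the genotype means was 3.92. The heterozygous IP sum was 2.42 times its testis and the homozygous 0.617 times. Sums per 1000 gene reads use the raw total, while CPM and interactions use TMM-scaled library sizes. The scaled size was below the gene reads in all heterozygous testis and homozygous IP libraries. It was above them in all homozygous testis and heterozygous IP libraries. A sum per gene reads thus leans to a higher heterozygous ratio than on the CPM scale, on which sums were not computed.

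The median interaction of the sense entries depended on the testis libraries. It was lowest, 0.77, without homozygous testis library 2 and highest, 1.61, without homozygous testis library 1. With testis library 1 of each genotype alone as input it was 0.87, and with library 2 alone 1.47. The number of the 100 entries above 0 was between 69 and 91 when any 1 library was left out.

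The 100 antisense entries for the same precursors had few reads, and only 64 passed the filter on low counts. Their sum was 0.350 and 0.260 reads per 1000 gene reads in the testis and 0.611 and 0.589 in the IP of heterozygotes, and 0.278 and 0.376 in the testis and 0.158 and 0.154 in the IP of homozygotes. The IP to testis ratio of this sum was 1.68 to 2.35 in heterozygotes and 0.410 to 0.570 in homozygotes, and the ratio of the genotype means was 4.12. In both orientations the sum per gene reads was highest in heterozygous IP, and the homozygous IP was below its own testis on that scale. How strand was assigned is not given in the sources used here, so sense reads counted as antisense cannot be told apart from antisense RNA. The antisense entry with the most reads, 13-qB1-1517.1, had an interaction of 0.32 (SE 0.62) and overlapping ratios.

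**Figure D2:**
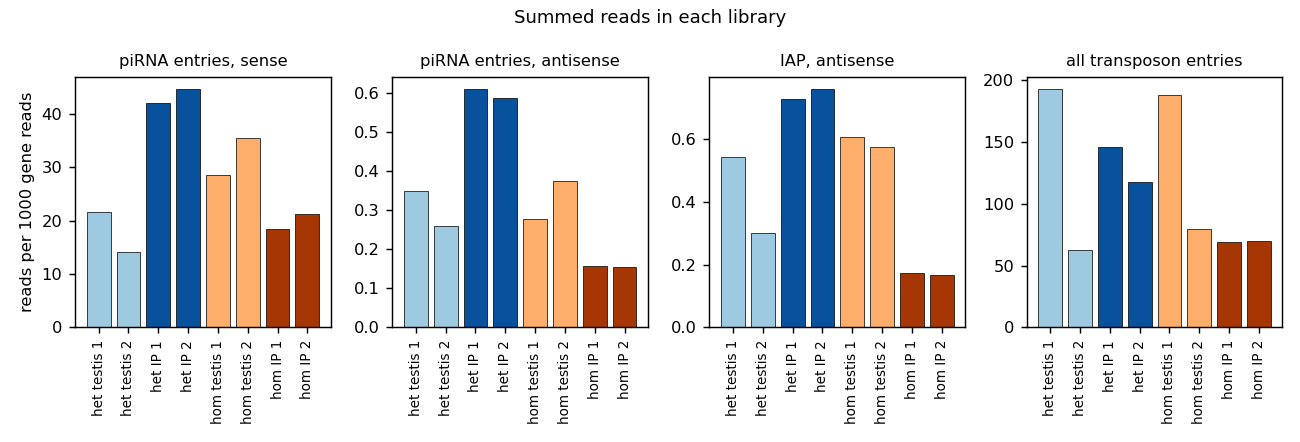
Bars give summed reads per 1000 gene reads in each of the 8 libraries, from 0 on a linear axis that differs between panels, for sense and antisense piRNA precursors, antisense IAP elements and all uniquely mapped transposon reads. In the first 3 panels the heterozygous IP bars are the highest and the homozygous IP bars lower than their testis; in the last the testis libraries 1 stand highest.

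Proteins of the piRNA pathway make the precursors into piRNAs, bind the products or build the germ granule in which this happens. Of 29 genes of this list that were tested, 14 had a positive and 15 a negative interaction, with a median of -0.01. An unadjusted edgeR p under 0.05 was reached by 1 higher and 1 lower, and neither edgeR nor DESeq2 called any. Piwil1, which encodes the PIWI protein MIWI of late spermatocytes and round spermatids (chosen after its values were seen), had 139.2 and 255.5 CPM in the testis and 385.5 and 417.2 in the IP of heterozygotes, and 148.7 and 553.8 in the testis and 217.0 and 170.2 in the IP of homozygotes. Its interaction was 1.88 (SE 0.83; edgeR's quasi-likelihood test, adjusted p = 0.515), and its ratios did not overlap. Without homozygous testis library 2 it was 0.69. Ddx4, the germ granule helicase and the most abundant of the list, had an interaction of -0.54 (SE 0.66). Summed over the list per gene reads, the IP to testis ratio was 1.10 to 1.23 in heterozygotes and 0.610 to 1.07 in homozygotes, without overlap. The 15 Tudor domain genes, Rnf17 included, had a median of -0.14. Their sum per gene reads also had ratios without overlap, with a ratio of genotype means of 1.86, against 1.49 for the piRNA pathway list. Both sums share the lean of that scale towards heterozygotes, and both list medians were near 0. No enrichment of either list is therefore read from these sums. Rnf17 mRNA, itself far lower in homozygotes, is part of the Tudor sum, and the sum without it was not computed. Of the Tudor domain genes the most abundant, Tdrd6, had an interaction of -0.14 (SE 0.84), with overlapping ratios.

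Transposon families are counted in the tables by uniquely mapped reads, in sense and antisense orientation, and 1059 of 1268 entries passed the filter on low counts. A family with many near-identical copies loses most of its reads in such a count. edgeR's quasi-likelihood test called 1 entry higher (0.0944%) and 0 lower (0.0%), and at an unadjusted p under 0.05 it marked 88 as higher (8.31%) and 12 as lower (1.13%). The adjusted edgeR calls were 311 higher and 22 lower without heterozygous testis library 1, 36 and 6 without heterozygous testis library 2, and 20 and 1 with a replicate block. DESeq2 called 11 higher (1.03%) and 1 lower (0.0934%) of 1071. All 4 heterozygous ratios lay above all 4 homozygous ratios for 247 entries (23.3%) and below for 30 (2.83%). The median interaction was 0.54 with scaling by gene reads and 0.13 with scaling within the transposon table.

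The 1 entry called by edgeR was antisense MERVL-int, the internal part of an endogenous retrovirus of the ERVL class that is known for its activity in early embryos. It stood at 99.2 and 37.3 CPM in the testis and 267.4 and 246.9 in the IP of heterozygotes, and at 86.3 and 131.7 in the testis and 17.6 and 19.7 in the IP of homozygotes. Both heterozygous IP libraries were the highest and both homozygous IP libraries the lowest, with the testis libraries between. The interaction was 4.46 (SE 0.82; adjusted p = 0.0487, edgeR's quasi-likelihood test with Benjamini-Hochberg adjustment; DESeq2, adjusted p = 3.64e-05). The edgeR call was lost without homozygous testis library 2 (edgeR's quasi-likelihood test, adjusted p = 0.146) and without any 1 of the IP libraries (edgeR, adjusted p between 0.0755 and 0.433), while the interaction stayed between 3.92 and 5.32.

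Intracisternal A particle (IAP) elements, a class of endogenous retroviruses that are active in the mouse and held down by DNA methylation, had the highest class median, 1.09 over 31 tested entries. Of these 27 were above 0, and the ratios of 15 were wholly above and of 0 wholly below. Summed IAP antisense reads were 0.544 and 0.300 per 1000 gene reads in the testis and 0.726 and 0.759 in the IP of heterozygotes, and 0.606 and 0.575 in the testis and 0.174 and 0.166 in the IP of homozygotes. The ratio was 1.33 to 2.53 in heterozygotes and 0.274 to 0.303 in homozygotes, with no overlap and a ratio of genotype means of 6.11. The most abundant entry, antisense IAPLTR3-int, had an interaction of 2.44 (SE 0.76; DESeq2, adjusted p = 0.0653), with 239.8 and 288.7 CPM in heterozygous IP against 45.0 and 51.1 in homozygous IP. Antisense IAPEz-int (chosen after its values were seen) had 122.4 and 110.9 CPM in heterozygous IP against 23.3 and 24.4 in homozygous IP, while its testis libraries were at 116.2 and 18.2 and at 113.8 and 123.2. Its interaction of 3.12 (SE 0.94) thus drew on a single low heterozygous testis library as well as on the IP, and it was 2.32 without that library and 4.99 without the other.

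Medians of sense and antisense entries differed, although the difference was not tested. Of the antisense entries tested, 436 of 542 lay above 0 with a median of 0.80, and of the sense entries 320 of 517 with a median of 0.28. The split was widest in LINE-1 families other than L1Md, where antisense entries had a median of 1.09 (95 of 103 above 0) and sense entries -0.47 (75 of 101 below 0). Computed from the libraries of 1 number, the sense median was -0.62 for number 1 and 0.08 for number 2, and the antisense median 0.57 and 2.02. Summed over all entries per gene reads, the ratio of genotype means was 1.97 in sense and 1.95 in antisense, with overlapping ratios in both. These sums share the lean towards heterozygotes described for the precursor sums. The sense sum was 95.2 in heterozygous IP library 1 and 65.2 in library 2, on the scale of the other sums. Sense MTB_Mm-int and L1Md_F2, described below, stood far higher in that library 1. Over both orientations the ratio of genotype means was 1.99, and 1.88 without sense MTB_Mm-int. The sense ratio without both entries was not computed, so the orientations cannot be compared by these sums. LINE-1 elements are autonomous retrotransposons that spread by copying their RNA. The share of unique transposon reads counted as antisense also differed between libraries, at 56.24% and 47.22% in the testis and 34.96% and 44.69% in the IP of heterozygotes, and at 58.31% and 52.37% in the testis and 43.94% and 40.26% in the IP of homozygotes. Its part in these medians was not tested. Among the other classes, the medians were 0.69 for ERV1, 0.59 for ERVK other than IAP, 0.58 for ERVL, 0.62 for MaLR and 0.20 for SINE elements.

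A pair of sense entries owed their high sums to 1 library. MTB_Mm-int stood at 13307.8 CPM in heterozygous IP library 1 and at 41.4 in library 2, while the other 6 libraries lay at or below 52.8. L1Md_F2 stood at 15991.9 and 1890.6 CPM in the same libraries, and between 715.1 and 2245.0 in the others. Without heterozygous IP library 1 the interaction of MTB_Mm-int went from 7.27 (SE 1.90) to -0.03, and that of L1Md_F2 from 2.49 (SE 1.15) to 0.27. The remaining most abundant entries of their classes, antisense RMER5, RMER17C, RMER10A, L2, B3 and L1_Mus1, and sense MamGyp-int, had interactions between -1.04 and 0.85. Of these only MamGyp-int had ratios that did not overlap, and it went from -1.04 to -0.40 without heterozygous testis library 2. Outside the naming rule, sense RLTR24, an ERV1 family, had an interaction of 3.31 (SE 0.73; DESeq2, adjusted p = 0.00895), from 56.0 and 55.8 CPM in heterozygous IP against 12.3 and 8.18 in homozygous IP. The entry that DESeq2 called lower was antisense HAL1-2a_MD, at -2.63 (SE 0.88; DESeq2, adjusted p = 0.0498), with 918.3 and 1193.7 CPM in heterozygous IP against 2173.9 and 3316.9 in homozygous IP. With multiply mapped reads its interaction had the opposite sign, 1.89.

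The 7 genes that DESeq2 called higher and that are not piRNA precursors included Pkd1l3, of the polycystin family, and Fbrs. Pkd1l3 had 40.2 and 52.6 CPM in the testis and 338.2 and 409.9 in the IP of heterozygotes, and 10.2 and 4.06 in the testis and 9.65 and 4.34 in the IP of homozygotes. Both heterozygous IP libraries stood well above the rest, while the homozygous IP matched its testis, and the interaction was 3.01 (SE 0.76; DESeq2, adjusted p = 0.00981). Fbrs had 5.17 and 8.94 CPM in heterozygous and 25.9 and 53.7 in homozygous testis, and 33.7 and 40.7 CPM in heterozygous and 33.5 and 17.0 in homozygous IP. Its interaction of 3.04 (SE 0.74) thus came mainly from the testis. Of the others, Leng8, Ddx17 (an RNA helicase) and Maged1, chosen after their values were seen, had interactions of 1.99, 1.76 and 2.46.

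The strongly negative genes named next were above their testis level in the homozygous IP, and lower in homozygous than in heterozygous testis. In some the testis difference between the genotypes was the larger in size, such as 4930578N16Rik (2.57 against -1.68 in the IP). In others the IP difference was, such as Ppig (0.94 in the testis against -2.93). The uncharacterised transcript 4930578N16Rik stood at 982.9 and 1117.3 CPM in the testis and 3128.4 and 4209.8 in the IP of heterozygotes, and at 158.1 and 194.8 in the testis and 9192.6 and 14332.7 in the IP of homozygotes. It was above its testis level in the IP of both genotypes, and it was lowest in homozygous testis and highest in homozygous IP. The interaction was -4.25 (SE 0.62; edgeR's quasi-likelihood test, adjusted p = 0.214; DESeq2, adjusted p = 3.71e-09).

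Ppig, a nuclear prolyl isomerase, had 584.6 and 386.2 CPM in the testis and 583.7 and 836.3 in the IP of heterozygotes, and 263.0 and 242.9 in the testis and 4526.4 and 6279.4 in the IP of homozygotes. Only the homozygous IP libraries stood apart from the other 6 by a wide margin. The interaction was -3.87 (SE 0.60; DESeq2, adjusted p = 4.23e-07). Ift74, a subunit of the intraflagellar transport complex that builds cilia and flagella, and Mns1, a protein of the sperm flagellum, were chosen after their values were seen. Ift74 had 2272.4 and 2891.4 CPM in heterozygous IP against 7433.4 and 12944.9 in homozygous IP, with an interaction of -3.56 (SE 0.70). For Mns1 the heterozygous IP held 1823.2 and 3193.7 CPM and the homozygous IP 8903.8 and 10835.1, with an interaction of -2.94 (SE 0.66). Both were lower in homozygous than in heterozygous testis.

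Zfp943, a zinc finger gene, showed another order. It had 236.1 and 138.1 CPM in the testis and 36.7 and 54.0 in the IP of heterozygotes, and 26.3 and 43.3 in the testis and 149.7 and 167.8 in the IP of homozygotes. Heterozygous IP was thus below its testis and homozygous IP above its own, with an interaction of -4.23 (SE 0.61; DESeq2, adjusted p = 4.1e-07). Zfp942 and Zfp51 had interactions of -4.32 (SE 0.68) and -3.84 (SE 0.80), and Zfp944, chosen after its values were seen, of -3.32 (SE 0.51). Gm4944, C130060K24Rik and Gm732 had -4.26, -4.90 and -4.24. None of the ratios of these 7 genes overlapped.

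**Figure D3:**
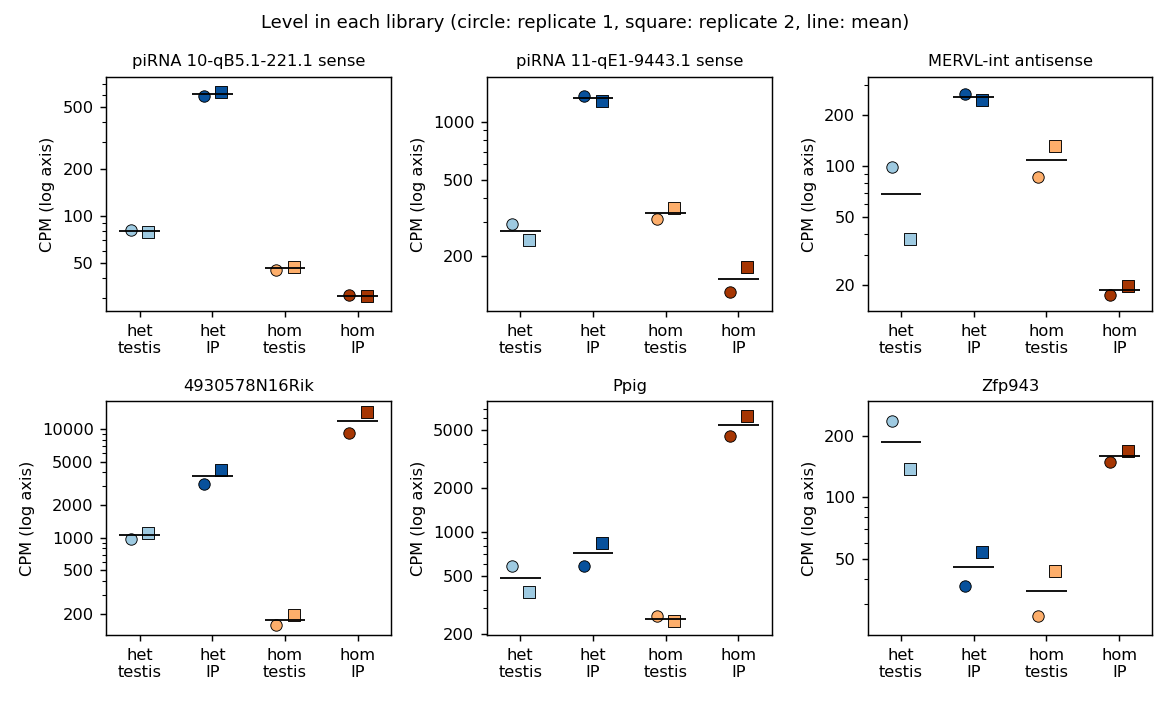
CPM of 6 entries in each library on a log axis, with circles for library 1, squares for library 2 and lines for the mean of the 2. In the precursors and MERVL-int the heterozygous IP is highest and the homozygous IP lowest; in 4930578N16Rik and Ppig the homozygous IP is highest; in Zfp943 heterozygous testis and homozygous IP are both high.

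Genes whose symbol is Zfp and a number encode zinc finger proteins, many of them DNA-binding repressors that arose by repeated gene duplication. This list was added after earlier results had been seen. Of 307 tested, 201 lay below 0 and 106 above, with a median of -0.42. An unadjusted edgeR p under 0.05 was reached by 43 in the lower and 3 in the higher direction, and 75 had ratios wholly below against 18 wholly above. DESeq2 called 10 lower and 0 higher of 88. Their median log2(IP / testis) was -0.66 in heterozygotes and -0.13 in homozygotes. The median stayed between -0.47 and -0.31 under every alternative run. Reads from neighbouring, similar Zfp genes could be split between them by the counting.

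Zfp transcripts had a median GC content of 44.8%, against 49.3% over all genes matched to an annotation, and the genes that DESeq2 called lower had 44.1%. Across 5 equal bins of GC content, from lowest to highest, the median interaction was -0.36, -0.10, 0.07, 0.16 and 0.30. Across 5 bins of mean level, from lowest to highest, it was 0.39, 0.25, 0.13, -0.04 and -0.54. Transcript length moved it less, from -0.05 in the shortest to 0.09 in the longest bin. The part of GC content and level in the Zfp values was not tested, and piRNA precursors are not in the annotation used. The sense precursors had a median mean log2 CPM of 7.46, in the most abundant bin of genes. The part of level in the precursor values was not tested either.

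The 2 genotype differences that make up the interaction had unequal shares in the directions. A call needs a large gap between these differences, which itself favours opposite signs. The counts below therefore describe the called genes and are no separate result. Over all genes tested the median genotype difference was -0.05 in the IP and -0.04 in the testis. Of the 30 genes that DESeq2 called higher, all 30 were higher in heterozygous than in homozygous IP, and 27 were lower in heterozygous testis. The IP difference was the larger of the 2 in 26. Of the 212 called lower that edgeR's filter also kept, 187 were higher in homozygous IP and 211 were higher in heterozygous testis. Here the testis difference was the larger in 131 and the IP difference in 81. The lower calls therefore held a larger share of genes that mainly differed in the testis. In homozygotes 191 of the 212 had more CPM in the IP than in the testis, and in heterozygotes 41 did.

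**Figure D4:**
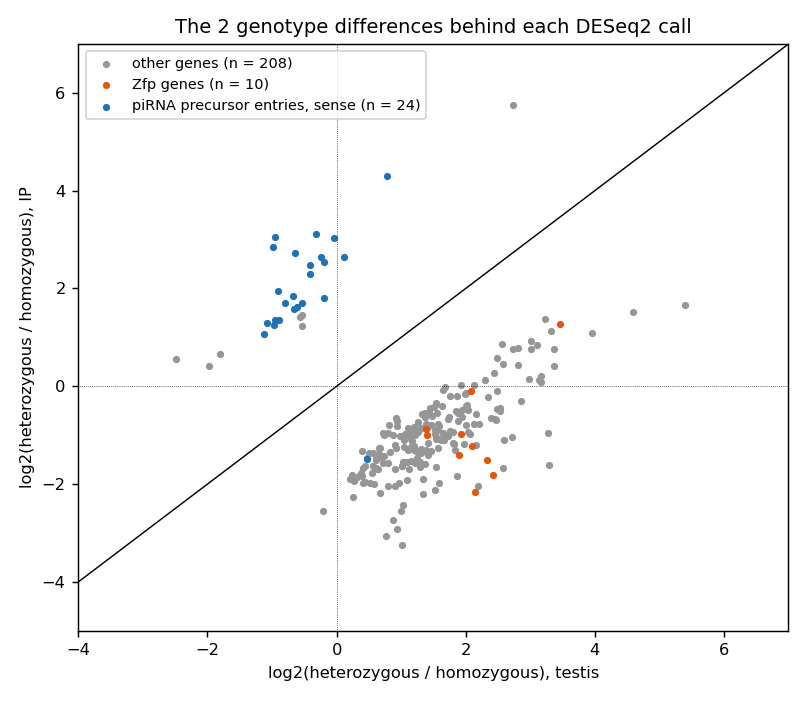
Each point is a gene called by DESeq2, with log2(heterozygous / homozygous) in the testis on the horizontal and in the IP on the vertical axis; the distance from the diagonal is the interaction. The piRNA precursors lie high on the left, with a positive IP and mostly a negative testis difference; most lower calls lie to the right, at positive testis differences.

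Cell type markers were used to see whether the composition of the samples moved with the comparison. Elongating spermatid genes, which encode the sperm nucleus and tail, were far lower in homozygotes in both fractions, with a median genotype difference of 3.85 (log2) in the testis and 3.04 in the IP over 40 genes. Their median interaction was -0.70, with 30 of 40 below 0. Without heterozygous testis library 2 that median became 0.68, and with testis libraries 1 alone as input 0.32, so its sign rested on that library. DESeq2 called 4 lower of the 37 with an adjusted p, beside 3.55% over all genes. Among the 4 were Cylc1 and Cylc2, cylicins of the sperm head cytoskeleton. Cylc2 had 213.8 and 756.7 CPM in the testis and 486.1 and 822.7 in the IP of heterozygotes, and 26.4 and 35.9 in the testis and 283.1 and 329.2 in the IP of homozygotes. The homozygous libraries kept more Cylc2 in the IP than in the testis, and the interaction was -2.86 (SE 0.82; DESeq2, adjusted p = 0.0199), or -1.68 without heterozygous testis library 2. Cylc1 had -2.73 (SE 0.77).

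Prm1 and Tnp1, which encode a protamine and a transition protein that replace histones in sperm chromatin, were chosen after their values were seen. Prm1 stood at 305.1 and 1713.7 CPM in the testis and 851.1 and 747.8 in the IP of heterozygotes, and at 7.41 and 3.46 in the testis and 4.92 and 2.84 in the IP of homozygotes. The genotypes were far apart in both fractions, and the interaction was 0.13 (SE 1.05). Tnp1 had -0.66 (SE 1.12), and its heterozygous testis libraries differed, at 1179.4 and 7788.8 CPM. Odf2, of the outer dense fibres of the tail and the most abundant of the list, had -1.19 (SE 0.73), with overlapping ratios, and -0.29 without heterozygous testis library 2.

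Earlier germ cells showed smaller values of the same sign. The medians were -0.52 for 37 round spermatid genes, -0.47 for 24 pachytene genes and -0.48 for 30 genes of meiotic prophase, and the round spermatid median ran from -0.95 to 0.64 over the alternatives. By median level the round spermatid, pachytene and elongating spermatid lists lay in the most abundant level bin. The median over all genes of that bin was -0.54, close to theirs. The meiotic prophase list lay in the bin below, at -0.04. The part of level in these medians was not tested. Of the 30 round spermatid genes with an adjusted p, DESeq2 called 1 lower, near its 3.55% over all genes. That was Catsper4, which encodes part of the calcium channel of sperm, with an interaction of -2.58 (SE 0.77, DESeq2 adjusted p = 0.0364). Catsper2 had -1.19 (SE 0.82). Without heterozygous testis library 2 Catsper4 and Catsper2 were at -1.65 and -0.13. Clgn, an endoplasmic reticulum chaperone of sperm proteins, had 3151.3 and 3941.5 CPM in the testis and 1408.0 and 1763.3 in the IP of heterozygotes, and 1844.2 and 2792.2 in the testis and 3433.1 and 5300.8 in the IP of homozygotes. It was below its testis level in heterozygous IP and above it in homozygous IP, and the interaction was -2.07 (SE 0.61; DESeq2, adjusted p = 0.0232). Tcp10b, of the same pachytene list, had -2.20 (SE 0.61). Sycp2, of the synaptonemal complex, had -0.44 (SE 0.75).

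Somatic and spermatogonial markers leaned the other way, with no DESeq2 call. However, DESeq2 gave an adjusted p to only 15 Sertoli, 12 Leydig, 5 spermatogonial, 4 myoid, 2 macrophage and 0 endothelial and blood genes. The medians were 0.32 for 25 Sertoli cell genes, 0.46 for 18 Leydig cell genes, 0.39 for 20 spermatogonial genes, 0.16 for 12 peritubular myoid genes, 0.24 for 13 macrophage genes and 0.40 for 9 endothelial and blood genes. Less abundant genes leaned positive as a whole. By median level the macrophage and endothelial lists lay in a bin with a median of 0.25 over all genes. The myoid, spermatogonial and Sertoli lists lay in the middle bin, at 0.13, and the Leydig list in the bin above, at -0.04. The part of level in these medians was not tested. Over the alternatives the Sertoli, Leydig and spermatogonial medians stayed above 0, from 0.08 to 0.68, 0.14 to 0.74 and 0.07 to 0.64, while the myoid, macrophage and endothelial medians changed sign under some. Summed Sertoli markers were 0.981 and 1.04 reads per 1000 gene reads in the testis and 1.30 and 1.11 in the IP of heterozygotes, and 2.76 and 2.30 in the testis and 1.93 and 1.20 in the IP of homozygotes. On this scale the IP to testis ratio of the sum was 1.07 to 1.32 in heterozygotes and 0.434 to 0.840 in homozygotes, without overlap. Summed Leydig markers were 0.645 and 0.585 in the testis and 0.699 and 0.696 in the IP of heterozygotes, and 1.66 and 1.44 in the testis and 0.928 and 0.574 in the IP of homozygotes, with ratios of 1.08 to 1.19 against 0.345 to 0.644. Of the tested markers, 19 of 25 Sertoli and 10 of 18 Leydig genes lay above 0. These sums moved in the same direction as the piRNA precursor sum, with ratios of genotype means of 1.93 and 2.34 against 3.92, and their part in it was not tested. All of them share the lean of the gene-read scale towards heterozygotes. Whether the marker sums stay apart on the CPM scale was not computed. Cyp17a1, a Leydig cell enzyme of androgen synthesis, had 1.67 (SE 0.71), Clu 0.40 (SE 0.79), Vwf 1.75 (SE 0.57) and Dazl -0.36 (SE 0.61). Actg2 and Aif1, the most abundant of the myoid and macrophage lists, were negative, at -2.08 (SE 0.62) and -2.26 (SE 0.85), and Aif1 was -1.02 without heterozygous testis library 2. Both were far higher in heterozygous than in homozygous testis, with log2 differences of 3.94 and 4.41. Their lists had medians of -0.98 and -0.55 for that difference, so these 2 genes did not move like the rest, and the reason was not tested.

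**Figure D5:**
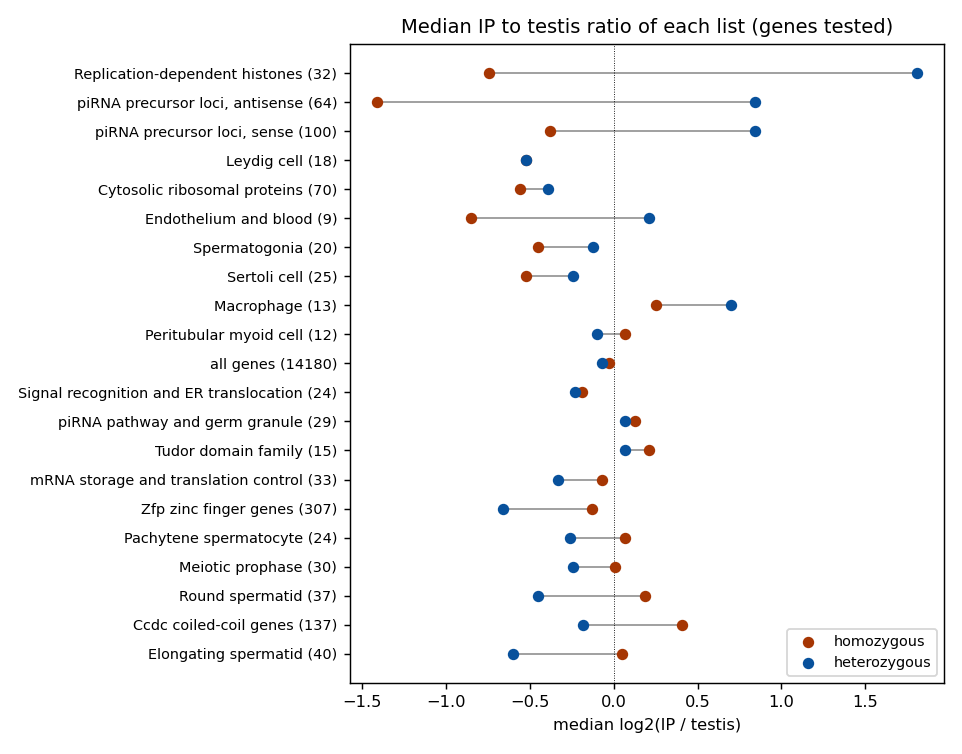
Median log2(IP / testis) of each gene list in homozygotes and heterozygotes, with the number of genes tested in brackets and the lists ordered by median interaction. piRNA precursors and histones lie to the right in heterozygotes and to the left in homozygotes, and the germ cell lists at the bottom the other way; the elongating spermatid order flips to a median interaction of 0.68 without heterozygous testis library 2.

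Replication-dependent histones, whose mRNAs lack a poly(A) tail and whose genes have near-identical copies, had a high median from few reads. Of 62 genes 32 passed the filter, and 29 of these lay above 0 with a median of 2.23. Without homozygous testis library 2 the median was 0.39, and 20 of 32 lay above 0. Summed over all 62 genes, the IP to testis ratio was 1.38 to 4.64 in heterozygotes and 0.669 to 1.82 in homozygotes, so the genotypes overlapped. Hist1h2aa (chosen after its values were seen) had 3.17 and 9.08 CPM in the testis and 47.9 and 41.8 in the IP of heterozygotes, and 6.50 and 23.5 in the testis and 9.08 and 4.84 in the IP of homozygotes. Its interaction was 3.97 (SE 1.00). Hist1h2ba, the most abundant of the list and a testis histone, had -0.11 (SE 1.02).

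The 33 tested genes of mRNA storage and translation control had a median of -0.17. DESeq2 called 1 lower of the 28 with an adjusted p, near its 3.55% over all genes. That was the Y-box protein gene Ybx1, at -2.72 (SE 0.90, DESeq2 adjusted p = 0.0454), or -1.45 without heterozygous testis library 2. Pabpc1, the most abundant of the list, had -0.99 (SE 0.74). The 24 genes of signal recognition and translocation into the endoplasmic reticulum had a median of 0.01, and Calr, a chaperone there, -1.56 (SE 0.53). The 70 ribosomal protein genes had a median of 0.45. Rpl13a, the most abundant of these, stood at 20018.6 and 24.0 CPM in heterozygous testis and at 6769.3 and 69.6 in homozygous testis, and between 28.4 and 75.2 in all IP libraries. Its interaction of -1.50 (SE 2.97) therefore followed the testis libraries 1, and processed copies of ribosomal protein genes make such counts uncertain. DESeq2 called Rpl23 lower at -4.22 (SE 1.49), where a single heterozygous testis library stood at 820.6 CPM and the other at 51.7, and it was -1.14 without the former. It also called Rpl10l, a retrogene copy used in male meiosis, at -2.40 (SE 0.69), with ratios that did not overlap.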

How the data were processed

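The tables deposited by the authors hold whole-number counts of reads assigned to genes and, uniquely or multiply mapped, to transposon families. The submitters' processing notes name STAR, DESeq and mm9; how reads were counted is not stated there. Depth is the total gene count, 5661754 to 50575649 per library. 0 columns were left unmapped.

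Genotype and fraction came from the titles. The 4 groups were fitted together with edgeR 4.0.16 in R 4.3.3 (TMM, filterByExpr, quasi-likelihood test, Benjamini-Hochberg adjustment), and calls were made at 0.05. SE is the log2 value divided by the root of F. Transposons used the effective library sizes of the gene table. DESeq2 1.42.0, RLE scaling, no filter, a replicate block, leaving out each library, scaling within the transposon table and multiply mapped reads were alternatives. The procedure was tested on simulated data.

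Named were Rnf17, the 8 largest calls in each direction (mean log2 CPM 3 or more, ratios not overlapping), or else the 3 smallest p, up to 2 called members or the most abundant member of each list, the 2 precursors with most reads, called transposons, and the top entry of each transposon class. As edgeR called 0 genes, the rule was also applied to DESeq2 calls. Members and lists were chosen with earlier results of these data known. Of the mitochondrial list 0 genes, and of the noncoding list 1 (Snhg11, interaction 3.39 at under 5 CPM), matched an entry. GC content and length came from an annotation of another build, so no coordinates are printed.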

Additional observations from a re-analysis of the deposited data

Results flagged for a closer look

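Antisense MERVL-int differed between the genotypes by a test of the difference itself. Its log2(IP / testis) was 1.92 in heterozygotes and -2.55 in homozygotes, an interaction of 4.46 (SE 0.82; edgeR's quasi-likelihood test, adjusted p = 0.0487). It was higher in both heterozygous IP libraries than in any other library. With multiply mapped reads counted in place of unique ones its interaction was 4.07 (edgeR's quasi-likelihood test, adjusted p = 0.439).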

How the results depend on the processing

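Higher and lower gene calls were 0 and 0 with edgeR's quasi-likelihood test as designed, 30 and 213 with DESeq2, and 0 and 0 with RLE scaling, with no filter and with a replicate block. Leaving out 1 library gave 0 to 34 higher and 0 to 225 lower, the highest counts without heterozygous testis library 1. DESeq2 and edgeR without that library shared 111 calls, 45.7% of DESeq2's and 42.9% of edgeR's. Chosen after seeing the data, testis libraries 1 alone as input gave 267 and 892, and testis libraries 2 alone 732 and 1409; each testis group is then 1 library, assumed to vary like the IP groups.

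Transposon calls were 1 and 0 as designed, 11 and 1 with DESeq2, 3 and 0 with no filter, 20 and 1 with the replicate block, and 0 and 0 with multiply mapped reads. Leaving out 1 library gave 0 to 311 higher and 0 to 22 lower, the highest counts again without heterozygous testis library 1. Without heterozygous testis library 2 there were 36 and 6. Testis libraries 1 alone gave 24 and 4, and libraries 2 alone 320 and 37. The cause of these shifts was not tested. The precursor median was between 0.77 and 1.61 when 1 library was left out and 1.14 with the block.

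Same-numbered libraries deviated together between heterozygous and homozygous testis (r = 0.588, across genes) but not between the other groups (r between -0.176 and 0.105), so the numbers did not pair libraries across all groups, and the block was kept as an alternative. In the blocked fit antisense B3 went to 0.01.

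The following directions changed. Without the filter Hist1h2ba was 0.03 and Tdrd6 0.00. With multiply mapped reads antisense RMER5, RMER17C, L2, B3 and HAL1-2a_MD were 3.09, 1.18, 0.68, 4.44 and 1.89. Scaling within the transposon table gave RMER10A -0.50. Testis libraries 1 alone gave Hist1h2ba 0.89 and Tnp1 1.71. Testis libraries 2 alone gave Rpl13a 1.58, Sycp2 0.66, Dazl 0.48, Tdrd6 0.12, RMER5 0.14, RMER10A -0.40, B3 0.05, L1_Mus1 -1.56, 14-qA3-3095.1 0.13 and Prm1 -1.25. Leaving out 1 library, Clu ranged from -0.21 to 1.31, Dazl from -0.86 to 0.40, Ddx4 from -1.34 to 0.08, Hist1h2ba from -0.89 to 1.66, Prm1 from -0.66 to 1.84, Rpl13a from -7.10 to 7.19, Sycp2 from -1.30 to 0.17, Tdrd6 from -1.31 to 0.62 and Tnp1 from -1.47 to 1.26. Precursors 13-qB1-1517.1 antisense, 14-qA3-3095.1 and 6-qF3-8009.1 ranged from -0.17 to 1.04, -0.82 to 0.16 and -0.14 to 1.21. Antisense L1_Mus1, RMER5, RMER17C, RMER10A and B3 ranged from -2.60 to 1.93, -0.81 to 0.09, -0.74 to 0.37, -0.78 to 0.63 and -0.51 to 0.58, and sense MTB_Mm-int from -0.03 to 8.32.

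With 2 libraries a group and testis libraries that differ in depth and transposon reads, the test has little precision, and entries with few reads, histones and antisense precursors among them, cannot be placed firmly.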

Other observations

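Genes with symbols that begin with Ccdc encode coiled-coil proteins, several of them parts of cilia and the sperm tail. The list was added after earlier results had been seen. Of 137 tested, 98 lay below 0, with a median interaction of -0.60, and 34 reached an unadjusted edgeR p under 0.05 in the lower and 0 in the higher direction, while edgeR's quasi-likelihood test called 0 after adjustment. DESeq2 called 21 lower and 0 higher of 80. Summed Ccdc reads were 26.2 and 27.8 per 1000 gene reads in the testis and 23.2 and 23.9 in the IP of heterozygotes, and 15.7 and 16.4 in the testis and 29.0 and 31.4 in the IP of homozygotes. The IP to testis ratio was 0.832 to 0.913 in heterozygotes and 1.77 to 2.00 in homozygotes, without overlap. Homozygotes thus held fewer of these reads than heterozygotes in the testis and more in the IP.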
